A study of Mus musculus with 3 samples.

Results

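Cells of the distal convoluted tubule of the mouse kidney were described in 3 single-cell libraries, 1 per group. A barcode counted as such a cell when at most 50% of its counts came from mitochondrially encoded genes, when it held at least 2 unique molecular identifiers (UMIs) of Slc12a3 and at least 3 summed over Slc12a3, Trpm6, Tmem52b, Pvalb and Sgms2, and when it held fewer UMIs of Slc12a1 than of Slc12a3. This found 1697 of 22679 barcodes, of which 558 came from the aged D+Q library, 481 from the aged vehicle library and 658 from the young library. The 3 groups were male mice: aged animals of 20 months given D+Q, aged animals of 20 months given vehicle, and young animals of 3 to 4 months. D+Q is the usual short form for dasatinib, a kinase inhibitor, with quercetin, a flavonoid; the labels do not spell it out and give no dose, schedule or number of animals per library. Kidneys were digested with collagenase II and read as 3′ transcript counts per barcode. With 1 library per group no difference between groups has a replicate check, so levels, folds and counting intervals are given and no test.

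The distal convoluted tubule is the short segment between the thick ascending limb and the connecting tubule. It reabsorbs sodium chloride through NCC, the thiazide-sensitive cotransporter encoded by Slc12a3, whose activity is set by the WNK kinases, by the kinase SPAK (Stk39) and by the ubiquitin ligase adaptor KLHL3, which marks WNK kinases for breakdown. Its early portion, DCT1, takes up magnesium through TRPM6, and its late portion, DCT2, also moves calcium through TRPV5, calbindin-D28k (Calb1), calbindin-D9k (S100g) and the sodium-calcium exchanger NCX1 (Slc8a1).

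The cells were 7.07% of kept barcodes in the aged D+Q library (95% exact Clopper-Pearson interval 6.52 to 7.66), 8.09% in the aged vehicle library (7.41 to 8.81) and 7.995% in the young library (7.42 to 8.60). Their summed counts were 1715591, 1613616 and 2283354 in aged D+Q, aged vehicle and young, with medians of 2279.5, 2275 and 2514 UMIs per cell. Every interval here covers counting error only and not the variation between animals. The libraries shared 28 to 38 barcodes pair by pair, of which 1 was such a cell in both aged vehicle and young. Cells holding over 3 times their library's median UMIs carried 18.97% of the cells' counts in aged D+Q, 31.4% in aged vehicle and 24.7% in young, and the median mitochondrial share was 7.16%, 4.20% and 7.06%. Values without those deep cells are given where they change a result.

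The genes that chose the cells describe them and are no finding. Slc12a3 stood at 5291 CPM, the counts scaled to a common total of all counts in the cells, in aged D+Q, 4418 in aged vehicle and 4567 in young, against 121, 173 and 143 CPM in all other barcodes. Trpm6, the magnesium channel, stood at 296, 204 and 359 CPM in aged D+Q, aged vehicle and young. Tmem52b, a membrane protein gene, stood at 340, 179 and 270 CPM and Sgms2, a sphingomyelin synthase, at 337, 293 and 389 CPM in the same order of libraries. Pvalb, which encodes the calcium buffer parvalbumin and is a classic marker of DCT1, was close to absent, with 21, 21 and 56 counts in all cells of aged D+Q, aged vehicle and young, or 12.2, 13.0 and 24.5 CPM. The label therefore rests on Slc12a3, Trpm6, Tmem52b and Sgms2 and not on Pvalb. At the threshold, 68 cells in aged D+Q, 48 in aged vehicle and 84 in young held exactly 2 UMIs of Slc12a3, while 133, 119 and 182 barcodes just outside held 2 and no UMI of the other 4 markers.

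The genes highest in these cells that the choice did not use included known genes of the segment. Ranked by the lowest of the 3 libraries' folds over all other barcodes, the 20 leading genes opened with Sall3 at 19.1-fold, a zinc-finger transcription factor, Tox3 at 14.8-fold and Slc8a1 at 13.2-fold. Hmgcll1 followed at 11.2-fold, Abca13 at 10.2-fold, Calb1 at 7.80-fold and Klhl3 at 7.66-fold. Wnk1 was 14th at 5.31-fold and Tfap2a, which encodes the transcription factor AP-2 alpha, 15th at 5.25-fold. The remaining genes were Grin3a, Cwh43, Phactr1, Rgs11, Cdk14, Ptgfr, Ank2, Grb14, Lnx1, Fgf13 and Syt17. Since the cells were chosen by transcripts, these folds are a description with no test.

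AP-2 binds the palindrome GCCNNNGGC, and promoters from RefSeq (build GRCm38.p6, from 250 bases before to 50 after each annotated start) were searched for it. Of the 20 leading genes 15 had an entry, and 5 of them, Abca13, Cdk14, Fgf13, Tox3 and Wnk1, held a match, as did 4 of the 5 genes that chose the cells. Among all genes with an entry, 18.5% held a match in at least 1 promoter. Counted by start, 25% of 24 starts of the leading genes and 63.6% of 11 of the choosing genes held a match, against 16.6% of all starts. The HNF1 half-site GTTAAT, searched on both strands, was found in 1 of the 15 and 1 of the 5 genes, against 8.24% of all genes. Shown as examples with a match are the promoters of Slc12a3 (chr8:94328958-94329257, plus strand) and Trpm6 (chr19:18749480-18749779, plus strand). Those of Wnk1 (chr6:120038606-120038905, minus strand) and Abca13 (chr11:9191692-9191991, plus strand) are shown as well. Calb1 and Slc8a1, on which results below also turn, were not among the leading genes with a match. Each runs 5′ to 3′ on the gene's own strand, with the AP-2 match in capitals. A match is a run of letters and not evidence of binding, and the kidney-specific form of Wnk1 starts at an internal exon outside this window.
Slc12a3: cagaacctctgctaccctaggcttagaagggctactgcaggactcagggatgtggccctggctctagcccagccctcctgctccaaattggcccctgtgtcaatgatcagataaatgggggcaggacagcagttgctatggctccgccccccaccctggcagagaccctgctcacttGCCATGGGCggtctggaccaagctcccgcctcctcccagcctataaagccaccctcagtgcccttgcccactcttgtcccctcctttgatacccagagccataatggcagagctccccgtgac
Trpm6: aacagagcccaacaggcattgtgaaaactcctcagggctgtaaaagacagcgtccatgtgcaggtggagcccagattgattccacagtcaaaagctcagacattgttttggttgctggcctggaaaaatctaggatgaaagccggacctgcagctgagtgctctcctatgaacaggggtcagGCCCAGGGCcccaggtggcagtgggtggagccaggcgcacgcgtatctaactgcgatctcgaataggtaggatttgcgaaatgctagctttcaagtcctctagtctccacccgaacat
Wnk1: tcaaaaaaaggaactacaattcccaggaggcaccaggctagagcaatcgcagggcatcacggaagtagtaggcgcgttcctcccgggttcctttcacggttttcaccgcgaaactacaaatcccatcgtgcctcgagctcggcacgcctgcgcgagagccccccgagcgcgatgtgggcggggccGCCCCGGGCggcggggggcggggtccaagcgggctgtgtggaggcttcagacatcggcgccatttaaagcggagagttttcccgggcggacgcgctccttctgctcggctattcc
Abca13: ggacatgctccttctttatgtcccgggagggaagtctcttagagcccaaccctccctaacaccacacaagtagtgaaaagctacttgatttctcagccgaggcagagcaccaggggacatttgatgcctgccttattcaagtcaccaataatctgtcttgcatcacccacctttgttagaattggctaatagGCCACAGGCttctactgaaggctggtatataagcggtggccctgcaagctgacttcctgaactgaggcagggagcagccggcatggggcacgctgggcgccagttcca
In these 4 promoters the match began 73, 68, 65 and 58 bases before the annotated start of Slc12a3, Trpm6, Wnk1 and Abca13.

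The rule gathered cells of very unequal distal character. Cells with 2 to 3 UMIs of Slc12a3 numbered 130 in aged D+Q, 90 in aged vehicle and 157 in young, and those with 20 or more numbered 184, 121 and 220. In the lowest of these strata the 20 proximal tubule markers summed to 32545, 31996 and 32126 CPM in aged D+Q, aged vehicle and young, which was the level in proximal tubule cells themselves (33672, 31534 and 32242 CPM). The median mitochondrial share in that stratum was 14.1%, 12.3% and 12.4%. In the highest stratum the same markers still summed to 17816, 18605 and 16769 CPM. The proximal tubule transcripts were therefore present at every level of Slc12a3, and their part in the ratios below was not tested.

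Some distal genes, such as Klhl3 and Erbb4, had higher levels at each step of Slc12a3 in each library, and others did not. Klhl3 stood at 68.1 CPM in the lowest and 563 CPM in the highest stratum of aged D+Q, at 39.4 and 397 CPM in aged vehicle, and at 46.5 and 521 CPM in young. Erbb4, a receptor tyrosine kinase, stood at 90.8 and 1186 CPM in aged D+Q, at 182 and 940 CPM in aged vehicle, and at 104 and 903 CPM in young. S100g stood at 346 and 272 CPM in the lowest and highest strata of aged D+Q, at 503 and 325 CPM in aged vehicle, and at 385 and 500.5 CPM in young. The level of Wnk1 in the lowest stratum was 462 CPM in aged D+Q, 310 CPM in aged vehicle and 604 CPM in young, and in the highest stratum it reached 4522 CPM in aged D+Q, 1951 CPM in aged vehicle and 4461 CPM in young. Between 10 to 19 and 20 or more UMIs of Slc12a3 it was higher in the upper stratum in aged D+Q and young and level in aged vehicle (1950 and 1951 CPM). This was not particular to Wnk1, since in aged vehicle Slc8a1 (2254 and 2262 CPM), Egf (1643 and 1642 CPM), Trpm6 (264 and 273 CPM) and Wnk4 (58.9 and 60.5 CPM) were level over the same step. In the highest stratum Slc12a3 itself stood at 9986, 6561 and 8845 CPM and Slc12a1 at 700.2, 1335 and 699 CPM in aged D+Q, aged vehicle and young. That stratum held 588399 counts in 184 cells of aged D+Q, 611452 in 121 cells of aged vehicle and 777164 in 220 cells of young, so the cells of aged vehicle were the deepest. Calb1 in the highest stratum stood at 622, 283 and 984 CPM in aged D+Q, aged vehicle and young. Cells with at least 10 UMIs of Slc12a3 (345, 278 and 389) are called the high-Slc12a3 cells below, a limit chosen after these values were seen. In these cells without the deep ones, the log2 ratio of Wnk1 was 0.76 for aged D+Q against aged vehicle and −0.77 for aged vehicle against young.

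**Figure D1:**
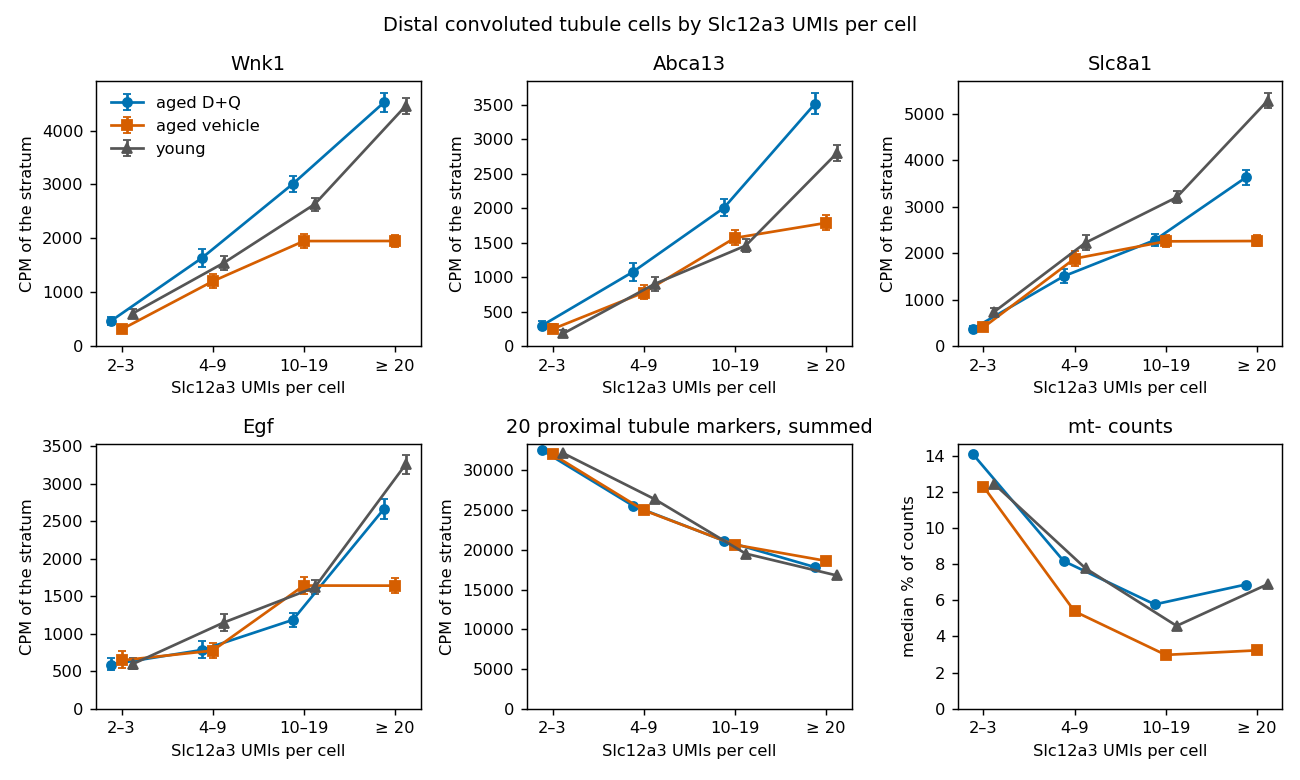
Levels by UMIs of Slc12a3 per cell (x axis) in the aged D+Q, aged vehicle and young libraries. The first 4 panels give CPM of Wnk1, Abca13, Slc8a1 and Egf with 95% Poisson intervals, the fifth the summed CPM of 20 proximal tubule markers, and the sixth the median percent of mitochondrial counts. Wnk1 reached 4522 and 4461 CPM at 20 or more UMIs in aged D+Q and young and 1951 CPM in aged vehicle. Slc8a1 and Egf were level over the last step in aged vehicle as well, and proximal tubule markers fell along the axis in all 3 libraries.

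The aged vehicle and young libraries were compared for differences with age. Of 7849 measured genes, those with 30 counts or more in all and an average of at least 20 CPM, 97 (1.24%) were at least 2-fold higher in aged vehicle and 30 (0.382%) at least 2-fold lower. The median log2 ratio of all measured genes was 0.12, and 76.4% of the genes past 2-fold were higher. With TMM scaling the median was −0.02, and 47.8% of 115 genes past 2-fold were higher. Ratios are therefore best read against 0.12. Wnk1, Calb1 and Slc8a1 lay below it.

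Wnk1 held 2809 CPM in the aged D+Q library (4819 counts), 1602 CPM in the aged vehicle library (2585 counts) and 2688 CPM in the young library (6137 counts). Aged vehicle was thus the low library, with aged D+Q and young close to each other. The log2 ratio of aged vehicle to young was −0.75 (95% counting interval −0.81 to −0.68), and it lay between −0.89 and −0.60 over 17 settings of the processing. In all other barcodes Wnk1 was level, with 316 CPM in aged D+Q, 302 in aged vehicle and 310 in young. In thick ascending limb cells the same ratio was −0.11 (Wnk1) and in proximal tubule cells 0.19. The 3′ counts do not separate the full-length WNK1 kinase from the shorter kidney-specific form.

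Calb1, the calcium-buffering calbindin-D28k, held 447 CPM in aged D+Q, 286 in aged vehicle and 634 in young. Its aged vehicle to young log2 ratio was −1.15 (−1.30 to −0.995), with −0.56 in thick ascending limb cells and −0.51 in proximal tubule cells. Slc8a1, the exchanger NCX1, held 2240, 1954 and 3275 CPM in aged D+Q, aged vehicle and young, with a ratio of −0.74 (−0.81 to −0.68). Both calcium genes were highest in young. The summed markers of connecting tubule and principal cells, which include Calb1, ran in the same order, with 674, 487 and 967 CPM in aged D+Q, aged vehicle and young, and their part in these ratios was not tested. Slc8a1 was also lower in aged vehicle in proximal tubule cells (−0.71), where its level was far lower. Trpm6, one of the genes that chose the cells, had −0.82 (−1.01 to −0.63), given as a description.

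Genes were named where the counting interval of the log2 ratio lay past 1.5-fold, with level limits given with the processing. The rule found 9 that were lower in aged vehicle than in young, which included Calb1, Slc8a1, Wnk1 and Trpm6. Cwh43, a lipid-remodelling gene of GPI anchors, held 96.2 CPM in aged D+Q, 47.7 in aged vehicle and 124 in young. Defb1, which encodes a beta-defensin of the distal nephron, held 389, 249 and 532 CPM in the same order. Both had their lowest level in aged vehicle and their highest in young. Egfem1 held 21.6, 25.4 and 71.8 CPM, and Fxyd4, a small membrane protein gene known from collecting duct, held 52.5, 46.5 and 120 CPM, so both were lower in aged D+Q and aged vehicle than in young. The aged vehicle to young log2 ratio of Egfem1 was −1.49 in distal, −0.86 in thick ascending limb and −1.65 in proximal tubule cells. In the same order of classes, Fxyd4 had −1.37, −1.05 and −0.81, Defb1 −1.09, −0.63 and −0.74, and Cwh43 −1.38, −0.67 and −0.40. For Egfem1 the log2 ratio of aged D+Q to young was −1.72, and −0.38 without mixed droplets, where its ratio to aged vehicle was 0.85 in place of −0.23. Pdk4, a kinase that restrains pyruvate use, held 20.4, 13.6 and 47.3 CPM and had a larger aged vehicle to young ratio in proximal tubule cells (−2.92) than in the distal cells (−1.77).

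Of 45 genes that met the same rule in the higher direction, the 12 with the largest ratios are named. Ankrd6 held 15.2 CPM in aged D+Q, 37.2 in aged vehicle and 8.32 in young, and Ksr2, a scaffold of the MAP kinase cascade, held 46.6, 75.0 and 19.7 CPM. Il34, a ligand of the macrophage receptor CSF1R made by injured tubules, held 30.3, 76.8 and 25.4 CPM, with an aged vehicle to young log2 ratio of 1.59 (1.14 to 2.07). Il34 was also higher with age in proximal tubule cells, at 1.17. Cadm2 held 99.7, 83.7 and 32.4 CPM and Nipal2, of a magnesium transporter family, 38.5, 31.6 and 11.4 CPM in aged D+Q, aged vehicle and young, so both were high in the 2 aged libraries. The others were Fyb, C7, Nectin1, Nrxn3, Acvr2b, Ola1 and Crispld2. Fyb is chiefly known from leukocytes, and the 12 leukocyte markers summed to 173, 363 and 186 CPM in aged D+Q, aged vehicle and young. Of the 12, 1 was at 0 in aged D+Q, 0 in aged vehicle and 1 in young, and the macrophage gene C1qa had 5, 20 and 18 counts. Their part in these ratios was not tested.

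Among the genes of sodium chloride transport and WNK regulation, 27 were measured and 0 passed 2-fold in either direction, against 1.62% of all measured genes. Their median log2 ratio of aged vehicle to young was −0.11 against 0.12 for all genes, with 17 of 27 below 0. Klhl3 had −0.11 (−0.29 to 0.07), Wnk4 −0.19 (−0.60 to 0.22) and Stk39 0.10 (−0.15 to 0.34), whose intervals include 0. Against the 0.12 of all genes, the interval of Klhl3 lay below it and those of Wnk4 and Stk39 included it. Nedd4l, a ubiquitin ligase that acts on the epithelial sodium channel and on NCC, was on the other side with 315, 434 and 303 CPM and a ratio of 0.52 (0.37 to 0.68). It had 0.54 in thick ascending limb and 0.57 in proximal tubule cells.

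The lists of the 2 portions of the segment both had medians below 0 by age, with ranges over the settings that overlapped. The DCT2 and connecting tubule list had 13 measured genes, a median of −0.44 for aged vehicle against young and 2 genes past 2-fold lower (Egfem1 and Calb1), against 0.382% of all genes. In the high-Slc12a3 cells its median was −0.67. Over 17 settings of the processing it lay between −0.67 and −0.13, the latter as a mean over cells. Kl, the co-receptor klotho, held 372, 314 and 492 CPM in aged D+Q, aged vehicle and young, and S100g held 330, 345 and 409 CPM. Klk1, the tissue kallikrein of the connecting tubule, held 1436, 1078 and 1464 CPM, but its aged vehicle to young ratio of −0.44 was −0.09 without the deep cells. The DCT1 list had 11 measured genes, a median of −0.24 and 0 past 2-fold. Its median was −0.37 in the high-Slc12a3 cells and lay between −0.49 and −0.22 over the 17 settings. The calcium list had a median of −0.23 over 12 genes, with 9 below 0 and Calb1 alone past 2-fold.

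The magnesium list had a median of 0.13 over 14 genes, next to that of all genes. Egf, the magnesium-retaining growth factor of this segment, held 1513 CPM in aged D+Q, 1352 in aged vehicle and 1903 in young. Its log2 ratio of aged vehicle to young was −0.49 (−0.57 to −0.42). Fkbp5, a corticosteroid-induced co-chaperone, was higher in aged vehicle than in young in all 3 cell classes, with 0.91 in distal cells, 0.71 in thick ascending limb and 0.78 in proximal tubule cells.

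**Figure D2:**
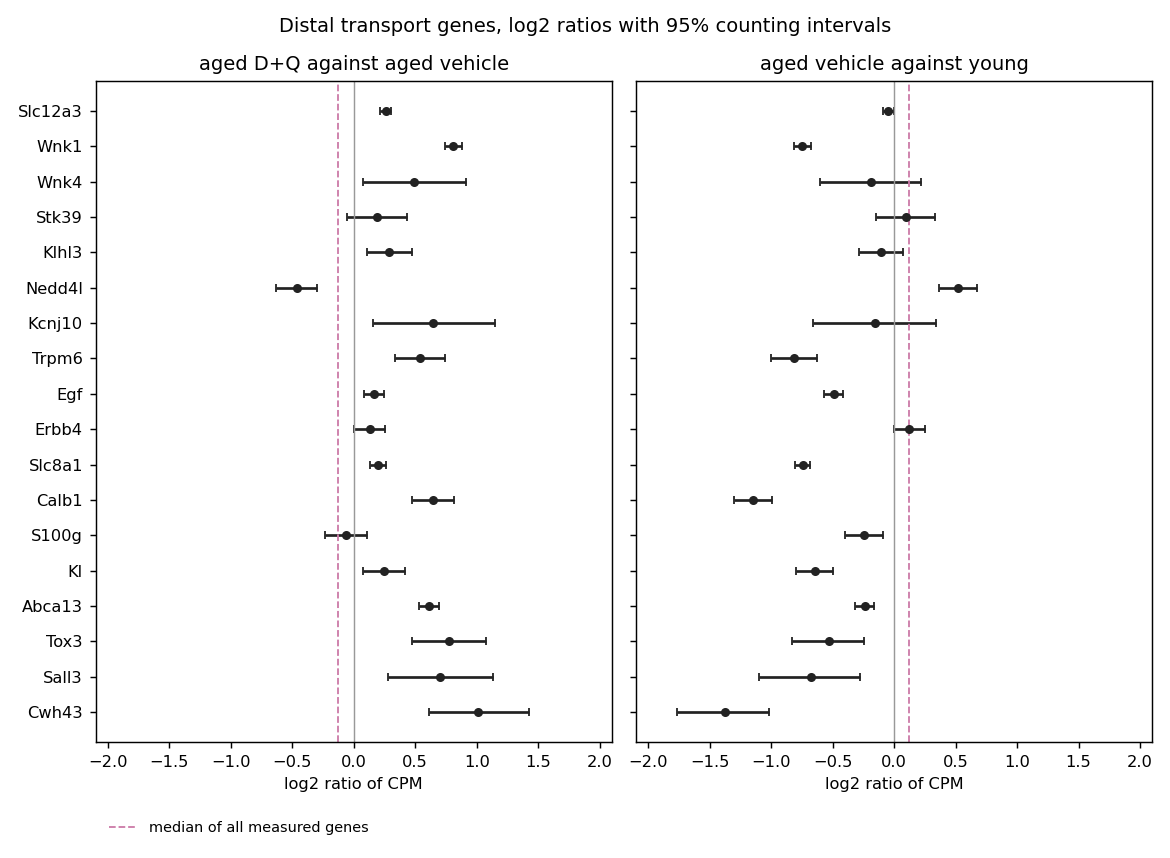
Log2 ratios of CPM (x axis) for 18 distal genes (rows) in aged D+Q against aged vehicle (left) and aged vehicle against young (right), with 95% counting intervals; the dashed line is the median of all measured genes. Wnk1 stood at 0.81 on the left and −0.75 on the right, and Calb1 at 0.64 and −1.15. The 2 panels share the aged vehicle library.

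The aged D+Q and aged vehicle libraries were compared for differences with treatment. Here 16 of the 7849 genes (0.204%) were at least 2-fold higher in aged D+Q and 65 (0.828%) at least 2-fold lower, and the median of all measured genes was −0.13. Of the genes past 2-fold 19.8% were higher, and with TMM scaling 50.7% of 67 were, with a median of 0.02. This comparison shares the aged vehicle library with the comparison by age, so an unusual level in that 1 library moves both, in opposite directions. The values of both are therefore set side by side without a count of genes that turn.

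For aged D+Q against aged vehicle the DCT1 list, and to a lesser degree the DCT2 and connecting tubule list, had medians above that of all genes. The DCT1 list had a median of 0.56 against −0.13 for all genes, with 11 of 11 measured genes above 0 and 1, Stk32b, past 2-fold, against 0.204% of all genes. The median was 0.81 in the high-Slc12a3 cells, −0.02 in thick ascending limb cells and 0.10 in proximal tubule cells. Over 17 settings of the processing it lay between 0.50 and 0.81. The DCT2 and connecting tubule list had a median of 0.24 over 13 genes, with 9 above 0. That median was 0.40 in the high-Slc12a3 cells. Over the 17 settings it lay between 0.01, without the deep cells, and 0.41. Stk32b, a serine/threonine kinase, held 76.9 CPM in aged D+Q, 31.6 in aged vehicle and 43.8 in young. Ptgfr, the prostaglandin F receptor, held 103, 52.1 and 78.4 CPM, and Abca13, a lipid transporter, held 2037, 1334 and 1576 CPM. All 3 were highest in aged D+Q and lowest in aged vehicle.

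Wnk1 had a log2 ratio of 0.81 (0.74 to 0.88) for aged D+Q against aged vehicle and 0.06 (0.01 to 0.12) for aged D+Q against young. Calb1 had 0.64 (0.47 to 0.81) against aged vehicle and −0.50 (−0.63 to −0.38) against young, so it was between the other libraries. Slc8a1 had 0.20 (0.13 to 0.27) against aged vehicle, but −0.09 without the deep cells and −0.19 without mixed droplets. The direction of Slc8a1 in this comparison thus depends on those cells. Mixed droplets were cells with at least 2 UMIs summed over a few markers of another class, or with more UMIs of Umod and Slc12a1 than of Slc12a3. Proximal tubule was not among those classes. Without mixed droplets the proximal tubule markers summed to 22104, 22441 and 21379 CPM in aged D+Q, aged vehicle and young. In all distal cells they summed to 22972, 22119 and 22121 CPM. In thick ascending limb cells Slc8a1 had a log2 ratio of −0.80 for aged D+Q against aged vehicle.

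The list of sodium chloride transport and WNK regulation had a median of 0.25 over 27 genes, with 18 above 0 and 0 past 2-fold, against 1.03% of all measured genes. Kcnj10, the basolateral potassium channel Kir4.1, held 55.4, 35.3 and 39.4 CPM in aged D+Q, aged vehicle and young, a ratio to aged vehicle of 0.64 (0.16 to 1.15). Wnk4, the partner kinase of Wnk1, held 72.3, 51.4 and 58.7 CPM with 0.49 (0.08 to 0.91). Klhl3 had 0.29 (0.11 to 0.47). These 3 were all above the median of −0.13. Nedd4l had −0.46 (−0.63 to −0.30), and Slc12a7, a potassium chloride cotransporter, −0.53 (−0.89 to −0.17).

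Of 13 genes that met the naming rule as higher in aged D+Q than in aged vehicle, the 12 with the largest ratios were Ier3, Brd1, Flvcr1, Stk32b, Kcnk1, Mt2, Tle5, Cwh43, Ptgfr, Tob1, Dnaja2 and Tmem52b, the last of which also chose the cells and is given as a description. Ier3, an immediate early gene, held 78.1, 22.3 and 41.6 CPM in aged D+Q, aged vehicle and young. Flvcr1, a choline and haem transporter, held 87.4, 34.7 and 67.4 CPM, with a ratio of 1.32 (0.88 to 1.80) that lay between 1.25 and 1.48 over 17 settings. Both were more than 2-fold higher in distal cells of aged D+Q. Ier3 had a log2 ratio of 1.79 in distal, 1.20 in thick ascending limb and 0.61 in proximal tubule cells. Flvcr1 had 0.67 in thick ascending limb and 0.47 in proximal tubule cells. Brd1, a chromatin reader, held 170, 51.4 and 48.6 CPM, and its ratio of 1.72 in distal cells was matched by 1.81 in thick ascending limb and 1.77 in proximal tubule cells. Brd1 thus differed in all 3 cell classes. Tle5 was likewise higher in all 3 cell classes, at 1.01, 1.10 and 1.01. Kcnk1, a 2-pore potassium channel, held 47.8, 20.5 and 25.8 CPM and had 0.31 in thick ascending limb and 0.10 in proximal tubule cells; its ratio of 1.21 was 0.59 in high-Slc12a3 cells without the deep cells.

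Lower in aged D+Q were Otulinl, H2-Q7, Zfpm2, Zfp976, Tafa1, Agbl1, Vstm5, Ccbe1, Il34, Apaf1, Dock2 and Ankrd6, the 12 largest of 26 that met the rule. In high-Slc12a3 cells without the deep cells, Agbl1 had −0.39 (−1.36 in all cells), Apaf1 −0.49 (−1.32), Dock2 −0.67 (−1.28) and Vstm5 −0.88 (−1.35), none of them past 2-fold. Zfp976 had −0.86 in cells of low proximal tubule share (−1.47 in all cells). H2-Q7, a non-classical class I gene, held 13.4, 47.1 and 21.9 CPM in aged D+Q, aged vehicle and young. Il34 had a ratio of −1.33 (−1.84 to −0.86) in distal cells and −0.13 in proximal tubule cells. Dock2, a leukocyte marker, held 22.7, 55.8 and 24.96 CPM. Of 12 leukocyte markers 4 were measured, with a median of −1.02 for aged D+Q against aged vehicle. Of 11 class II genes 4 were measured, with −0.78. The limit on average CPM includes aged vehicle, so a high level there helps a gene to be measured. These medians may therefore lean below 0. Ptprc, for example, held 19.2 CPM in aged D+Q, 39.0 in aged vehicle and 18.8 in young. All 12 leukocyte markers, with no such limit, summed to 173 CPM in aged D+Q and 363 in aged vehicle. Class I genes had a median of −0.43 over 8, and interferon response genes −0.42 over 10 with 9 below 0. Without mixed droplets the medians were 0.03 for class I, −0.13 for interferon response and −0.12 for class II genes, so class I changed direction and the others came closer to 0.

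**Figure D3:**
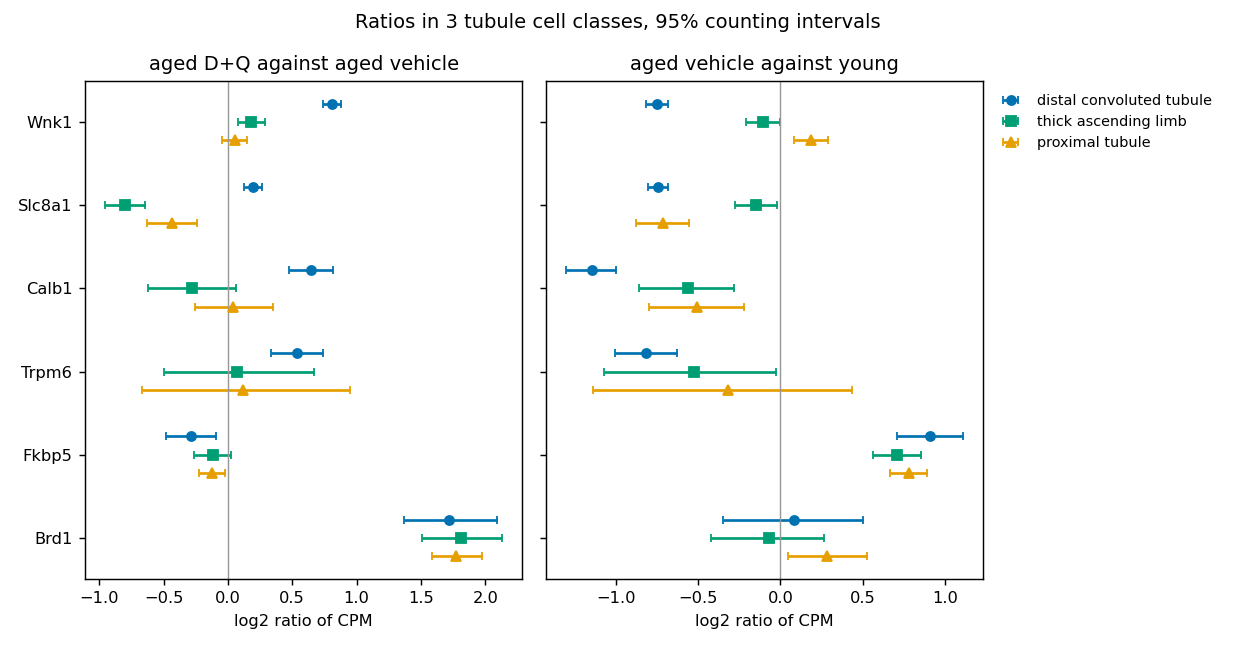
Log2 ratios of CPM (x axis) for 6 genes (rows) in distal convoluted tubule, thick ascending limb and proximal tubule cells, in aged D+Q against aged vehicle (left) and aged vehicle against young (right), with 95% counting intervals. Wnk1 stood apart in distal cells (0.81 and −0.75, against 0.18 and −0.11 in thick ascending limb cells), while Brd1 had similar ratios in the 3 cell classes (1.72, 1.81 and 1.77 on the left).

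Aged D+Q differed from young in 73 genes past 2-fold (0.93% of those measured), 35 higher (0.446%) and 38 lower (0.484%). Rtl4, a gene of the DCT1 list, held 114 CPM in aged D+Q, 66.9 in aged vehicle and 43.8 in young. Pde10a, a cyclic nucleotide phosphodiesterase, held 138, 79.9 and 42.5 CPM. Both were highest in aged D+Q and lowest in young, and with Brd1, Nipal2 and Cadm2 they were the 5 largest higher ratios. Phactr1 of the DCT2 list had the same order of libraries, with 722, 482 and 387 CPM. Egfem1, Slc4a9, Rrs1, Armt1 and Peg3 were the 5 named as lower, of which Egfem1 was not past 2-fold without mixed droplets. Peg3, an imprinted gene, held 18.1, 26.6 and 43.4 CPM, and its ratio to young of −1.25 was −0.46 in high-Slc12a3 cells without the deep cells. In thick ascending limb and proximal tubule cells Peg3 had −1.34 and −1.09. In these 2 classes Slc4a9, an intercalated cell marker, had −1.57 and −0.73, and Egfem1 −2.18 and −1.16. Rrs1 had −0.40 and −0.37 there and Armt1 −0.03 and 0.05, against −1.31 and −1.28 in distal cells.

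The cells were then divided by Calb1, to set the late portion of the segment apart. Each of the high-Slc12a3 cells was thinned to 1000 UMIs by 1 random draw, and a cell with at least 1 UMI of Calb1 was counted as Calb1-positive. These were 86 of 345 cells in aged D+Q (24.9%, exact interval 20.5 to 29.8), 47 of 278 in aged vehicle (16.9%, 12.7 to 21.8) and 133 of 389 in young (34.2%, 29.5 to 39.1). Among all distal cells the thinned shares were 22.04%, 16.4% and 27.2%, and without thinning 33.5%, 26.2% and 45.4%. In proximal tubule cells, which should lack Calb1, the thinned shares were 2.89%, 2.70% and 3.38%, at median depths of 2283, 1825 and 2349 UMIs. Aged vehicle had the smallest share and young the largest, and a separate draw gave 25.8%, 17.99% and 34.7% of the high-Slc12a3 cells.

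Several genes of the late segment, though not all, were higher in the Calb1-positive cells of each library. Slc8a1 was present at 13.3 UMIs per 1000 in Calb1-positive and 1.23 in Calb1-negative cells of aged D+Q, at 14.7 and 1.94 in aged vehicle, and at 15.4 and 1.37 in young. S100g stood at 0.488 and 0.232 in aged D+Q, 1.26 and 0.203 in aged vehicle, and 0.797 and 0.262 in young. Slc12a3, whose UMIs chose these cells, stood at 11.05 and 9.81 in aged D+Q, 9.02 and 8.08 in aged vehicle, and 11.3 and 8.38 in young. Log2 ratios of positive to negative cells were above 0 in all 3 libraries for Klk1 (1.14, 2.44 and 1.39), Kl (1.07, 1.18 and 1.20), Phactr1 (0.93, 1.79 and 1.47) and Arl15 (1.97, 0.95 and 1.86), and below 0 for Erbb4 (−1.26, −2.50 and −0.50), in the order aged D+Q, aged vehicle and young. Genes of the early list did not share one direction. Abca13 was above 0 in all 3 libraries (0.22, 0.43 and 0.55), as was Tox3 (0.77, 1.15 and 0.98), while Stk32b had −0.25, −1.33 and 0.76. Of the late list, Egfem1 was below 0 in all 3, with 0, 0 and 4 counts in positive and 3, 5 and 13 in negative cells, and Scnn1b, a subunit of the epithelial sodium channel, had 1 count in positive and 7 in negative cells of aged D+Q. Kap, a proximal tubule transcript, had −0.04, 0.15 and 0.06, close to equal on the 2 sides.

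Levels between libraries were then read on each side of the division. In Calb1-positive cells Slc8a1 stood at 13.3 UMIs per 1000 in aged D+Q (12.5 to 14.1), 14.7 in aged vehicle (13.6 to 15.9) and 15.4 in young (14.7 to 16.0). The intervals of aged vehicle and young overlapped. In Calb1-negative cells Slc8a1 stood at 1.23, 1.94 and 1.37 in the same order, highest in aged vehicle. The share of positive cells also depends on the level of Calb1 per cell, and these cannot be told apart here. Wnk1 in Calb1-negative cells stood at 4.27 (4.02 to 4.53), 2.33 (2.14 to 2.53) and 4.42 (4.16 to 4.68) in the same order. In Calb1-positive cells it stood at 7.85 (7.27 to 8.46), 6.04 (5.36 to 6.79) and 6.77 (6.34 to 7.23). Aged vehicle had the lowest Wnk1 on both sides; its interval lay clear of both other libraries in Calb1-negative cells and overlapped that of young in Calb1-positive cells. Trpm6, one of the genes that chose the cells, is described the same way, with 0.556, 0.351 and 0.602 in negative cells and 0.826, 0.915 and 0.947 in positive cells.

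A division by Slc8a1, at 4 or more UMIs of 1000, gave 20.6%, 21.2% and 28.3% of the cells in aged D+Q, aged vehicle and young. By this gene aged D+Q and aged vehicle had like shares, so the larger share in aged D+Q than in aged vehicle was seen with Calb1 and not with Slc8a1. Wnk1 in cells below that limit was again lowest in aged vehicle, with 4.34, 2.16 and 4.56 UMIs per 1000. Calb1 in the cells at or above that limit stood at 2.54 UMIs per 1000 in aged D+Q (2.18 to 2.93), 1.71 in aged vehicle (1.39 to 2.08) and 3.07 in young (2.75 to 3.42), so its level per cell of this kind was lowest in aged vehicle.

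**Figure D4:**
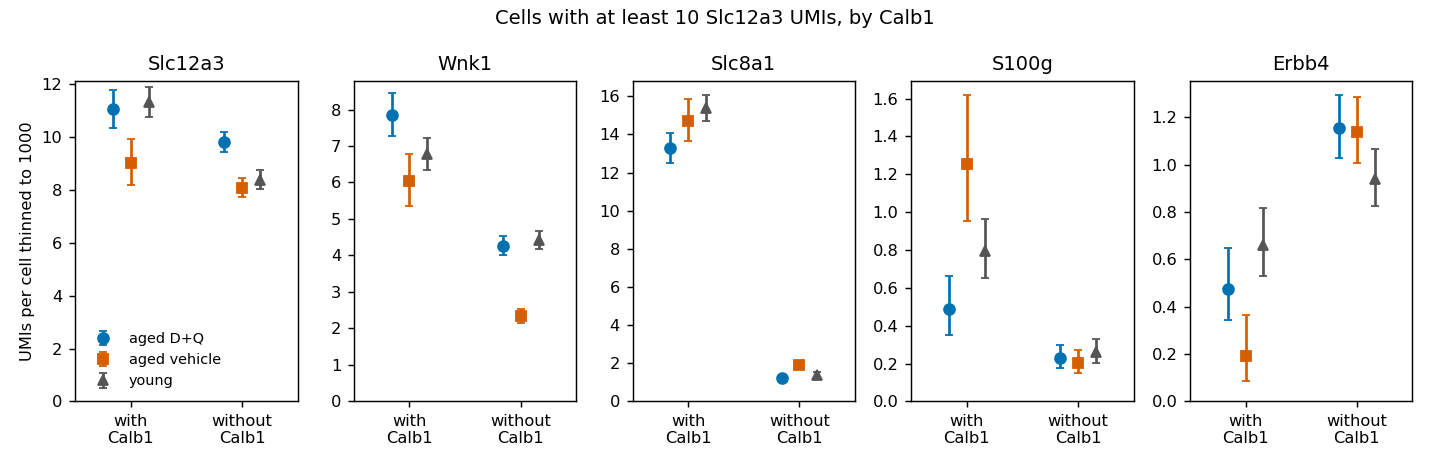
UMIs per cell thinned to 1000 (y axis) of 5 genes in Calb1-positive and Calb1-negative high-Slc12a3 cells of the aged D+Q, aged vehicle and young libraries, with 95% Poisson intervals. Wnk1 in Calb1-negative cells stood at 4.27, 2.33 and 4.42, and Slc8a1 in Calb1-positive cells at 13.3, 14.7 and 15.4.

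Genes of energy use and stress were read as lists. All 13 measured mitochondrially encoded genes were lower in aged vehicle than in young, with a median of −0.52, and all 13 were higher in aged D+Q than in aged vehicle, with a median of 0.51. The same medians in proximal tubule cells were −0.39 and 0.39, so proximal tubule cells of these libraries had the same direction. The 77 nuclear-encoded respiratory chain genes had medians of −0.12 and −0.03. Heat shock and unfolded protein response genes had −0.27 by age, with 19 of 21 below 0, and 0.18 for aged D+Q against aged vehicle. By age these genes had −0.23 in thick ascending limb and −0.16 in proximal tubule cells. Clock genes had 0.39 by age over 13 genes, with 10 above 0, and −0.04 for aged D+Q against aged vehicle. Their medians by age were 0.44 in thick ascending limb and 0.32 in proximal tubule cells, the same direction. Cytosolic ribosomal protein genes had 0.11 and −0.21 over 75 genes, against 0.12 and −0.13 for all genes.

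Genes of senescence and injury were read in the same way. Cell cycle arrest and senescence genes had medians of −0.12 for aged D+Q against aged vehicle and −0.14 by age over 10 measured genes, 0 of which passed 2-fold, where 1.03% and 1.62% of all measured genes did; a list of this size says little at those shares. Secreted senescence factors had a median of 0.06 for aged D+Q against aged vehicle, which lay between −0.34 and 0.21 over 17 settings, and Ccn1, a matricellular protein gene, was past 2-fold lower with 29.7, 72.5 and 45.5 CPM in aged D+Q, aged vehicle and young. Of the injury list 15 genes were measured, with medians of −0.11 for aged D+Q against aged vehicle and −0.02 by age. By age 3 of the 15 passed 2-fold, against 1.62% of all measured genes, with Il34 higher and S100a6 and Krt7 lower. Il34 met the naming rule, while S100a6 and Krt7 did not. Whether the transcripts of S100a6 and Krt7 came from the distal cells was not tested. Class II genes had a median of 0.96 by age over the 4 measured of 11 genes, and without mixed droplets −0.30. The limit on average CPM includes aged vehicle, so the median by age may lean upward.

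**Figure D5:**
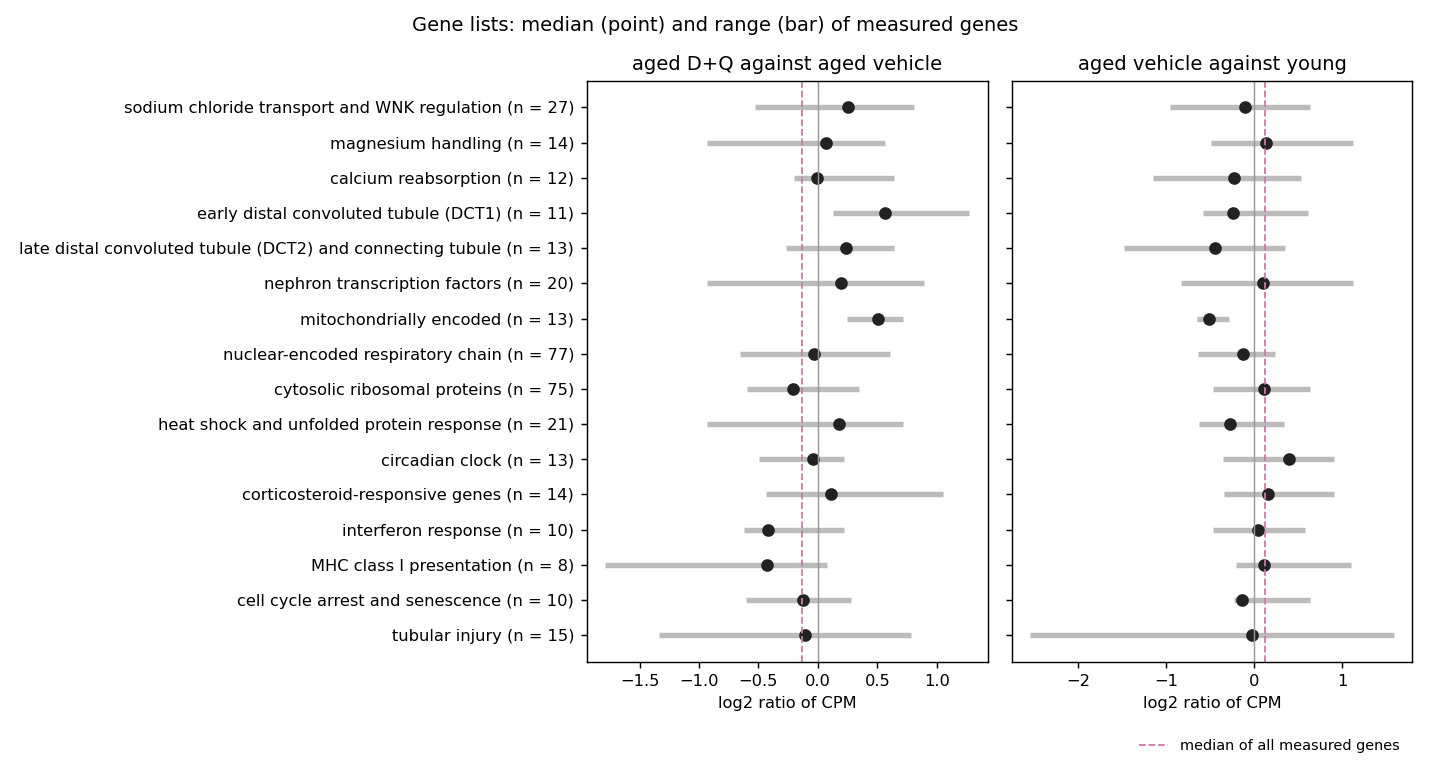
Median (point) and range (bar) of the log2 ratios of measured genes in 16 lists (rows, with the number measured) for aged D+Q against aged vehicle (left) and aged vehicle against young (right); the dashed line is the median of all measured genes. The DCT1 list stood at 0.56 on the left and −0.24 on the right. Mitochondrially encoded genes, whose summed share the choice of cells limited, stood at 0.51 and −0.52.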

How the data were processed

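Kidneys of male mice were digested to single cells and 3′ libraries were made with the MobiCube 3′ V2.1 kit, per the labels' protocols. The deposited files hold whole-number counts of UMIs per gene and barcode for 33696 genes, 1 library per group; the authors' aligner was not given in the sources used here, and the submitters' processing notes name the builds GRCm39 and mm10 without their roles. Total counts were 21058975 in aged D+Q, 13944270 in aged vehicle and 24346733 in young over 8037, 6027 and 8615 barcodes. Nothing says how many animals a library holds.

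Counts were summed over cells and divided by their total (CPM). Log2 ratios used 0.5 added counts, with 95% conditional binomial intervals; levels have Poisson and shares exact Clopper-Pearson intervals, for counting error only. A gene was measured with 30 counts or more in all and an average of at least 20 CPM. Genes were named by size of ratio among those with at least 20 counts and 30 CPM in the higher library, an interval beyond 1.5-fold and, in that library, a level at least that of other barcodes (12 per direction, 5 for aged D+Q against young), leaving out mitochondrial, ribosomal protein, haemoglobin, immunoglobulin and proximal tubule marker genes and unnamed loci. The members, gene lists and tests were chosen with earlier results of these data known, and the divisions by 10 UMIs of Slc12a3, by depth, by Calb1 and by Slc8a1 after the values were seen. Doublets were not removed in the main values: Scrublet's automatic threshold marked under 0.5% of barcodes, so leaving out the highest scores was an alternative, which removed 73 of the distal cells in aged D+Q, 18 in aged vehicle and 65 in young. Shared barcodes were counted. Scripts ran in Python 3.11.15 with numpy 2.4.6, pandas 2.3.3, scipy 1.17.1, scanpy 1.11.5 and matplotlib 3.10.9; TMM factors came from edgeR 4.0.16 in R 4.3.3, with no edgeR test. The ratio script was checked on simulated counts. Some genes of the lists are not reported here.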

Additional observations from a re-analysis of the deposited data

How the results depend on the processing

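The share of cells moved with the rule. With a Slc12a3 minimum of 1 it was 7.78% in aged D+Q; with a minimum of 4 it was 5.43%, 6.58% and 6.09% in aged D+Q, aged vehicle and young, with a minimum of 10 4.37%, 4.68% and 4.73%, with the rule applied after thinning 4.72%, 5.72% and 5.32%, and without mixed droplets 4.13%, 3.85% and 4.53%; without deep cells it was 7.35% in aged vehicle and 7.36% in young. Genes past 2-fold for aged D+Q against aged vehicle (81) numbered 166 with a minimum of 4, 343 with thinning, 337 without mixed droplets, 301 in cells of low proximal tubule share, 214 with a minimum of 10, 147 without deep cells, 316 with both, 166 as a mean over cells, 1603 and 14 with a lower and a higher floor, and 813 past 1.5-fold. For aged vehicle against young (127) they numbered 222 with thinning, 377 without mixed droplets, 299 at low proximal tubule share, 243 with a minimum of 10, 351 with that and no deep cells, 1513 and 40 with the lower and higher floor, and 936 past 1.5-fold. For aged D+Q against young (73) they numbered 158, 200, 152, 122, 184, 1282, 27 and 482 under the same settings. The median of MHC class II genes for aged vehicle against young (0.96) was −0.30 without mixed droplets. The causes were not tested. Fewer cells or genes enter several of these settings, which raises counting error. Over all settings 67 list medians moved by 0.2 or more and 1258 by less, and 459 single-gene values lay outside their main counting interval and 4250 within it. Each library is 1 sample, so animal, batch and group cannot be told apart, and genes under the floor were not measured at this depth. No paired analysis was possible because each group has 1 library and no test was made.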

Other observations

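Some transcripts of other cells differed between the libraries in every cell class looked at. Upk3a, a uroplakin of the urothelium, stood at 7.58 CPM in distal cells of aged D+Q, 1.24 in aged vehicle and 53.0 in young, and its log2 ratio of aged vehicle to young was −5.10 in distal, −6.22 in thick ascending limb and −5.28 in proximal tubule cells. Hbb-bs, a beta-globin of red blood cells, stood at 105.5 CPM in distal cells of aged D+Q, 229 in aged vehicle and 89.8 in young. Its ratio of aged vehicle to young was 1.35 in distal, 1.91 in thick ascending limb and 1.43 in proximal tubule cells.

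Fatty acid use genes had a median log2 ratio of −0.21 for aged vehicle against young over 34 measured genes, with 25 below 0 and Cyp4a14, Pdk4 and Ehhadh past 2-fold lower, where 0.382% of all measured genes were. Of these, Pdk4 met the naming rule, while Cyp4a14 and Ehhadh did not. The median of the list in proximal tubule cells was also −0.21. Antioxidant genes had medians of 0.03 for aged D+Q against aged vehicle and 0.00 for aged vehicle against young over 24 genes, with the glutathione transferases Gstm1 and Gsta4 past 2-fold lower in aged vehicle than in young, against the same 0.382%. Neither Gstm1 nor Gsta4 met the naming rule. Whether the transcripts of Cyp4a14, Ehhadh, Gstm1 and Gsta4 came from the distal cells was not tested.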
